A study of Homo sapiens with 13 samples.

Results

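A group of 10 epithelial genes, most of them for cell adhesion or the cytoskeleton, was followed in 2 small cell lung cancer (SCLC) lines: *EPCAM*, *CDH1*, *KRT8*, *KRT18*, *KRT19*, *CLDN3*, *CLDN4*, *CLDN7*, *ESRP1* and *TFF3*. They were taken by symbol, with no threshold on a value, and all 10 were among the 56831 genes listed for each line. H82 and H146 are established human SCLC lines, both labelled WT for genotype, and were left untreated (3 libraries each) or given FHD-286, a dual inhibitor of the SMARCA4 and SMARCA2 ATPases, at 100 nM for 14 days (3 libraries of H82 and 4 of H146). The labels give the control cells no treatment and name no vehicle. RNA was sequenced in bulk, so that fewer cells of a type and less RNA per cell cannot be told apart. Nothing in the labels says that libraries of a group came from separate cultures, and p-values then measure the spread between these libraries, which may be technical.

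SMARCA4 and SMARCA2 are the motor subunits of SWI/SNF complexes, which move nucleosomes and open chromatin. EPCAM and E-cadherin (*CDH1*) join neighbouring epithelial cells, claudins form the strands of tight junctions, and keratins 8, 18 and 19 are intermediate filament proteins of simple epithelia. ESRP1 directs epithelial splicing, and TFF3 is a small peptide secreted by mucous epithelia. SCLC is a neuroendocrine carcinoma in which keratins and EPCAM are commonly present, to degrees that differ between lines.

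On hg38, with genes as annotated in GENCODE release 44, *CLDN3* (chr7:73768997-73770270, minus strand) and *CLDN4* (chr7:73799542-73832690, plus strand) lie near each other. *KRT8* (chr12:52897187-52949954, minus strand) and *KRT18* (chr12:52948871-52952906, plus strand) share exon bases on opposite strands. *KRT19* (chr17:41523617-41528308) and *CLDN7* (chr17:7259903-7263983) are on the minus strand of chromosome 17, and exons of *CLDN7* overlap *ELP5* on the opposite strand. *EPCAM* is at chr2:47345158-47387601 (plus strand), *CDH1* at chr16:68737292-68835537 (plus strand), with an overlapping antisense RNA, and *TFF3* at chr21:42311667-42315409 (minus strand). Whether the counting used the strand is not given in the sources used here, so reads in the shared bases of these genes cannot be assigned with certainty.

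Levels are in TPM, a unit in which a gene's reads are divided by its length and every library then has the same sum. The number of reads is not part of such values, and no counting interval can be given. The treated libraries of a line were set against its untreated ones with limma, on log2(TPM + 1), for genes that reached 1 TPM in 3 or more of its libraries, with a two-sided threshold of 0.05 on the p-value adjusted over all genes tested. Fold changes are differences on that log2 scale, which understates the change of genes at low levels. Their median over all genes was -0.56 in H82 and 0.25 in H146. Scaling the libraries by the median of ratios brought it to -0.14 and -0.02.

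The label SCLC was checked with 8 neuroendocrine genes, of which at least 7 reached 1 TPM in every library of each group. In H82 their summed level was 723 to 766 TPM without and 189 to 694 TPM with treatment, and in H146 it was 2790 to 3263 and 1679 to 2776 TPM. Leukocyte and endothelial markers summed to at most 9.51 and 2.65 TPM. The 7 fibroblast markers were higher with treatment, at 1.70 to 2.5 TPM without and 8.0 to 35.4 TPM with it in H82, and at 8.22 to 11.4 and 18.7 to 37.3 TPM in H146. Mitochondrial genes held 22.1% to 24.1% of the TPM without and 12.3% to 14.9% with treatment in H82, and 7.56% to 8.86% and 3.82% to 11.4% in H146. The part of these shifts in the results was not tested. Genes at 1 TPM or more numbered 21227 to 21772 without and 15554 to 16633 with treatment in H82, and 17476 to 17965 and 18778 to 19309 in H146.

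Replicate 2 of treated H82 stood apart in the genes described here. To see whether it differed more widely, 113 other genes were taken that were at no more than 0.1 TPM in untreated H82 and at least 20 TPM in untreated H146. Together they reached 427 TPM in that library, 82.2 and 36.6 TPM in replicates 1 and 3 of treated H82, and 1.13 to 1.24 TPM in untreated H82. In untreated H146 they summed to 10525 to 11524 TPM. Changes of named genes in H82 are therefore also given without this library where that ended a call or moved the value by over 1.5 times. Over 1462 well-expressed genes, replicates 3 and 4 of treated H146 and replicates 1 and 3 of untreated H82 were closer to each other than to the other libraries of their group, and sampling noise could not be set beside that from TPM. In treated H82 it was replicate 1, not replicate 2, that lay farthest from the others over these genes. The interquartile range of log2 ratios was 0.208 between replicates 2 and 3. Between replicate 1 and replicates 2 and 3 it was 0.782 and 0.811.

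Before treatment the lines differed in all 10 genes. The summed level of the 10 was 3340 to 3657 TPM in H146 and 6.91 to 9.75 TPM in H82. In limma, each was higher in untreated H146 than in untreated H82, by 2.20 (*CLDN4*) to 9.56 (*KRT19*) on the log2 scale, where 30.5% of all 23676 genes tested were higher and 41.9% lower. For *KRT19* the mean was 929 ± 85.0 TPM in H146 and 0.234 ± 0.188 TPM in H82 (SD, n = 3 each), and for *EPCAM* 687 ± 18.6 and 1.26 ± 0.406 TPM. *CLDN4* had the smallest gap of the 10, at 12.2 ± 3.59 and 1.82 ± 0.496 TPM. *CDH1* was listed at 0 in 2 of the untreated H82 libraries and *TFF3* in 2, against 45.5 to 60.8 and 299.5 to 405 TPM in untreated H146.

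In untreated H146 the order of levels per length ran from *KRT19* through *EPCAM*, *KRT8*, *CLDN3*, *TFF3*, *ESRP1*, *CLDN7*, *KRT18* and *CDH1* to *CLDN4*. Neighbours in that order did not overlap between libraries, except *KRT8* with *CLDN3*, *CLDN3* with *TFF3*, and *CLDN7* with *KRT18*. With treatment *EPCAM* was first, at 326 ± 53.0 TPM (SD, n = 4), and *CLDN3* second, at 217 ± 43.3 TPM. *KRT19* went from first to eighth place, from *KRT8* through *ESRP1*, *CLDN7*, *TFF3* and *CDH1* to *KRT19* each gene overlapped with the next, and the ranges of *KRT19* and *KRT18* did not overlap. In untreated H82 all neighbours in the order overlapped.

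**Figure D1:**
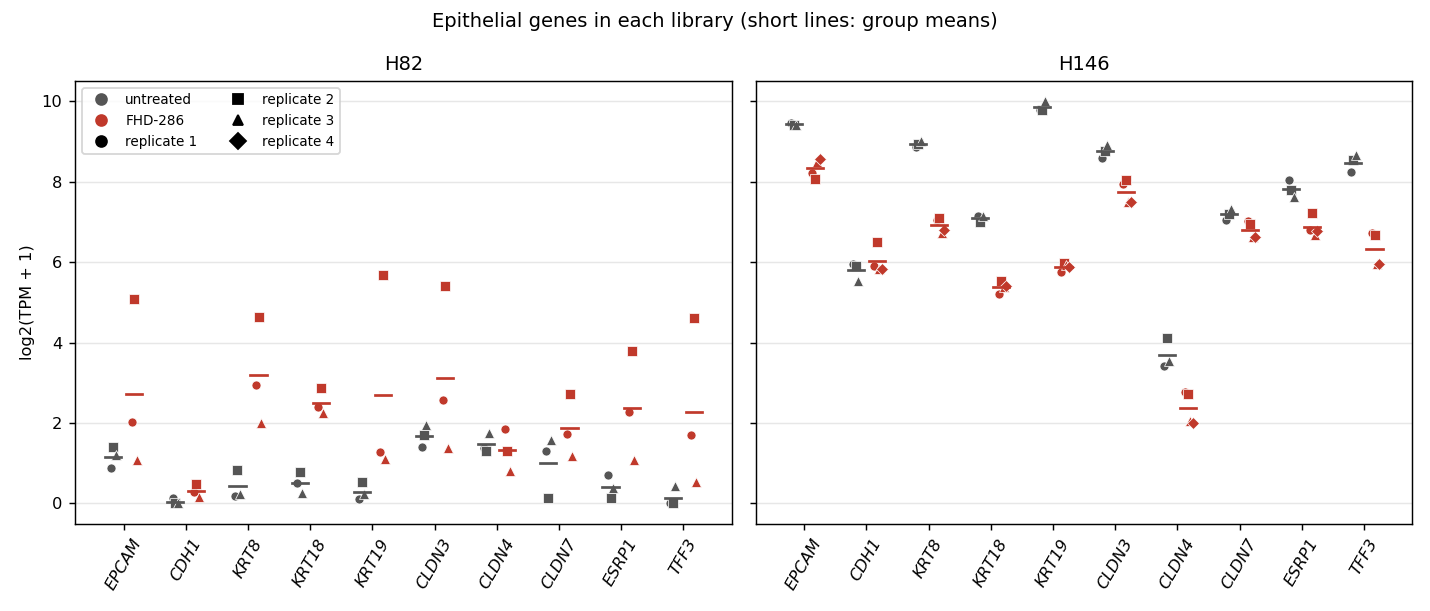
Level of each of the 10 genes in every library, as log2(TPM + 1), in H82 (left) and H146 (right), with untreated libraries in grey, FHD-286 in red, a marker shape for each replicate number and a short line at each group mean. In H146 every treated library lies below every untreated one for 9 genes, and in H82 replicate 2 of the treated libraries is the highest for 9 genes.

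In H146, 8 of the 10 genes fell with FHD-286 and none rose. The 8 were *EPCAM*, the 3 keratins, *CLDN3*, *CLDN4*, *ESRP1* and *TFF3*, at an adjusted p under 0.05 in limma, where 15.5% of all 19585 genes tested were lower and 32.5% were higher. Treated and untreated libraries did not overlap for 9 of the 10, all with the treated libraries below. Over all genes tested, treated libraries lay below for 17.3% and above for 35.7%. The median log2 fold change of the 10 was -1.19, against 0.25 for all genes. The summed level of the 10 went from 3340 to 3657 TPM down to 1066 to 1244 TPM.

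The adhesion molecules behaved differently. *EPCAM* was at 708, 677 and 676 TPM in the untreated libraries and at 295, 268, 359.7 and 381 TPM in the treated ones. The groups did not overlap, and the mean was 2.11 times higher without treatment. *EPCAM* fell by 1.09 on the log2 scale (SE 0.14, adjusted p = 0.000628). *CDH1* was at 60.8, 58.9 and 45.5 TPM untreated and at 59.2, 90.2, 56.3 and 55.9 TPM treated. Replicate 2 of the treated libraries was the highest of the 7, and the other 3 lay within the untreated range. The change of *CDH1* was 0.23 (SE 0.20, adjusted p = 0.366) and took the other sign, -0.089, with scaling by the median of ratios. The ratio of *EPCAM* to *CDH1* within a library was 11.5 to 14.9 untreated and 2.98 to 6.81 treated.

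The keratins fell most among the 10, together with *TFF3*. *KRT19*, a type I keratin of simple and glandular epithelia, was at 879, 880.5 and 1027 TPM untreated and at 53.3, 62.2, 60.3 and 57.6 TPM treated. The 4 treated libraries were close to one another and far below all untreated ones, with a mean 15.9 times lower than without treatment. *KRT19* fell by 3.97 (SE 0.11, adjusted p = 1.14e-06). *KRT8*, a type II keratin that pairs with keratin 18, was at 465, 491 and 516 TPM untreated and at 131, 136, 106 and 111 TPM treated, and fell by 2.02 (SE 0.13, adjusted p = 1.72e-05). Its partner *KRT18* was at 141, 127 and 139.7 TPM untreated and at 35.8, 45.5, 40.9 and 41.7 TPM treated, and fell by 1.71 (SE 0.12, adjusted p = 2.63e-05). In neither did the groups overlap.

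The 3 keratins did not fall in proportion. The ratio of *KRT19* to *KRT18* within a library was 6.23 to 7.35 untreated and 1.37 to 1.49 treated, and that of *KRT19* to *KRT8* was 1.79 to 1.99 and 0.406 to 0.570. The ratio of *KRT8* to *KRT18* was 3.29 to 3.87 untreated and 2.58 to 3.67 treated, so that these ranges overlapped.

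Processed pseudogenes of keratins resemble their parent genes closely, and reads may be split between them. Of 12 pseudogenes of *KRT8*, 4 reached 1 TPM in any library, as did 2 of 16 of *KRT18* and 0 of 2 of *KRT19*. In H146 those of *KRT8* summed to 4.23 to 5.40 TPM untreated and 10.5 to 29.7 TPM treated, the direction opposite to *KRT8*. Most of that was *KRT8P12*, at 4.05, 4.69 and 3.84 TPM untreated and 26.4, 9.68, 29.2 and 26.7 TPM treated. *KRT8P12* was 2.10 higher on the log2 scale with treatment (SE 0.35, adjusted p = 0.00175 in limma). Their part in the result for *KRT8* was not tested. The summed level of these pseudogenes in treated H146 was below the lowest level of *KRT8* there, 106 TPM.

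*CLDN3* and *CLDN4*, claudins encoded near each other on chromosome 7, both fell, and *CLDN7* lay at the threshold. *CLDN3* was at 384, 437 and 483 TPM untreated and at 244, 263, 181 and 179 TPM treated. *CLDN4* was at 9.61, 16.3 and 10.6 TPM untreated and at 5.82, 5.55, 3.15 and 3.02 TPM treated. The groups did not overlap for either. *CLDN3* fell by 1.02 (SE 0.17, adjusted p = 0.00196), and *CLDN4* fell by 1.30 (SE 0.27, adjusted p = 0.00489). *CLDN7* was at 132, 147 and 159 TPM untreated and at 129.7, 122, 97.2 and 97.6 TPM treated. Its highest treated library lay just below its lowest untreated one, and the change was -0.39 (SE 0.14, adjusted p = 0.0510). Replicates 3 and 4 of the treated libraries were the lowest for all 3 claudins. The ratio of *CLDN3* to *CLDN7* was 2.92 to 3.04 untreated and 1.84 to 2.15 treated.

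RefSeq sequences of the 250 bases before the start (GRCh38.p14) matched 4 of the 10 genes, *CLDN3*, *CLDN4*, *CLDN7* (with 2 starts) and *KRT8*. They were searched on both strands for the GC box GGGCGG, the AP-1 motif TGANTCA, the E-box CACCTG bound by SNAI and ZEB repressors, and the Grainyhead motif AACCNGTT. The GC box was in 3 of the 4 claudin windows (not in the second of *CLDN7*), as in 42.6% of 35116 windows of the same length, the AP-1 motif in that of *CLDN4* (6.57% of windows), the E-box in 1 window of *CLDN7* (17.5%), and the Grainyhead motif in none (1.49%). The window of *KRT8* (chr12:52926470-52926719) held none of the motifs, and it lies inside the span of the gene given above, not at its outer end. Each stretch below, 5′ to 3′ on the strand of the gene, was picked to show a motif. They begin 76 (*CLDN3*), 177 (*CLDN4*) and 31 bases (*CLDN7*) before the start, so that their letters cannot be compared by position. A relation to the changes of these genes was not tested. Capitals mark the GC boxes of *CLDN3* (chr7:73770317-73770346, minus strand), the AP-1 motif of *CLDN4* (chr7:73830819-73830848, plus strand) and the E-boxes of *CLDN7* (chr17:7262480-7262509, minus strand), and the stretches of *CLDN4* and *CLDN7* lie in annotated exons of their gene:
CLDN3: agcgcggctCCGCCCctaCCGCCCccaccg
CLDN4: ttctgagactggatagTGACTCAgggaccc
CLDN7: ctacatatactCAGGTGcgcccCACCTGtc
A match is a description of the letters and not of binding.

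*ESRP1*, the splicing factor, was at 261, 222 and 195 TPM untreated and at 110.2, 149, 101 and 109 TPM treated. Its groups did not overlap, and it fell by 0.95 (SE 0.16, adjusted p = 0.00222). *TFF3* was at 299.5, 370 and 405 TPM untreated and at 105, 101, 61.3 and 61.1 TPM treated. Replicates 3 and 4 were again the lowest, and *TFF3* fell by 2.15 (SE 0.23, adjusted p = 0.000228). Its mean was 4.37 times higher without treatment, against 1.93 times for *ESRP1*.

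**Figure D2:**
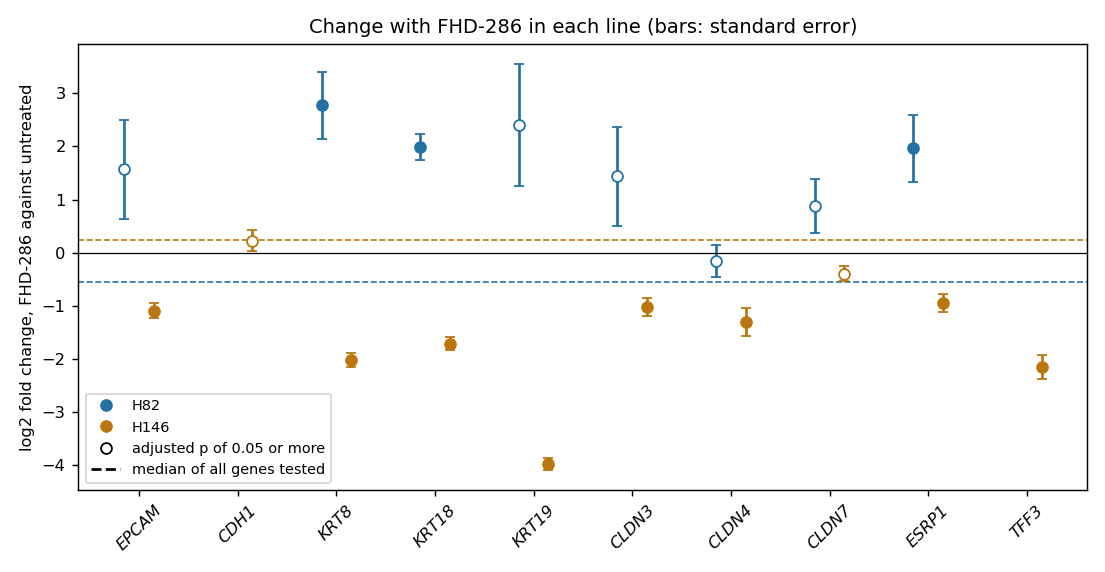
Log2 fold change with FHD-286 of each gene in H82 (blue) and H146 (ochre), on the log2(TPM + 1) scale with standard errors as bars, filled where the adjusted p was under 0.05, with dashed lines at the median of all genes tested in each line. In H146, 8 filled points lie below 0, and in H82, where *CDH1* and *TFF3* were below the filter, 3 filled points lie above 0.

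In H82 no member was called lower, but untreated means of 0.031 TPM (*CDH1*) to 2.26 TPM (*CLDN3*) left little room for a fall. *KRT8*, *KRT18* and *ESRP1* were higher with treatment in limma, at levels far below those of H146. None of the 3 reached 1 TPM in an untreated library, so that the filter admitted them through the group in which they were high. With no filter, *KRT8* (adjusted p = 0.0212) and *KRT18* (adjusted p = 0.00388) passed and *ESRP1* (adjusted p = 0.0691) did not. Of all 19770 genes tested in H82, 13.1% were higher and 45.5% lower. Of the called genes, 77.7% were lower, against 57.6% with scaling by the median of ratios and 48.0% with quantile normalization. Under quantile normalization 7 of the 8 tested members were higher, as were 5256 of all 19770 genes. *CDH1* and *TFF3* were below the filter, and *KRT19* too passed it only through its treated libraries, so that the count of calls is not one over all 10 genes. Treated libraries lay above all untreated ones for 6 genes (*CDH1*, *KRT8*, *KRT18*, *KRT19*, *ESRP1* and *TFF3*) and below for 0. Of the 19768 genes that passed the filter, 16.4% lay above and 51.4% below. *CDH1* and *TFF3* are not among those, and the other 4 passed only through their treated libraries. The 6 genes are therefore not a like comparison with these shares. Without replicate 2 of the treated libraries, and with 1 TPM in 2 libraries as the filter, 2 genes were higher, *KRT8* and *KRT18*.

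*KRT18* had the smallest SE of the 8 genes tested in H82. It was at 0.417, 0.725 and 0.191 TPM untreated and at 4.27, 6.25 and 3.77 TPM treated. All 3 treated libraries lay above the untreated ones by a wide margin, and *KRT18* rose by 1.99 (SE 0.25, adjusted p = 0.000745), or by 1.81 without replicate 2 (adjusted p = 0.00518). *KRT8* was at 0.139, 0.791 and 0.179 TPM untreated and at 6.67, 23.9 and 3.02 TPM treated. Its treated libraries were all higher but spread widely, and *KRT8* rose by 2.77 (SE 0.63, adjusted p = 0.00799), or by 2.05 without replicate 2 (adjusted p = 0.00985). Pseudogenes of *KRT8* summed to 18.2 to 21.5 TPM in untreated H82 and 6.43 to 12.8 TPM in treated H82, and so lay above *KRT8* itself in untreated H82. Those of *KRT18* summed to 2.72 to 3.26 TPM untreated and 0.432 to 0.783 TPM treated. They too lay above their parent gene in untreated H82 and went in the opposite direction. The part of these pseudogenes in the results for *KRT8* and *KRT18* was not tested.

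*KRT19* was at 0.0821, 0.444 and 0.175 TPM untreated and at 1.43, 50.2 and 1.15 TPM treated. Replicate 2 was 38.9 times the mean of the other treated libraries, which still lay above the untreated ones. The change of *KRT19* was 2.40 (SE 1.15, adjusted p = 0.113), and 0.90 without replicate 2 (adjusted p = 0.0527). *ESRP1* was at 0.629, 0.106 and 0.294 TPM untreated and at 3.80, 12.8 and 1.10 TPM treated. It rose by 1.97 (SE 0.63, adjusted p = 0.0316), and the change was 1.26 without replicate 2 (adjusted p = 0.0575). That ended the call, as did testing with no filter (adjusted p = 0.0691). For *EPCAM* the untreated libraries were at 0.837, 1.65 and 1.30 TPM and the treated ones at 3.08, 32.8 and 1.11 TPM. Replicate 3 lay within the untreated range, and the change of 1.57 (SE 0.94, adjusted p = 0.189) became 0.39 without replicate 2 (adjusted p = 0.412).

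The claudins did not pass the test in H82. *CLDN3* was at 1.66, 2.24 and 2.89 TPM untreated and at 4.97, 41.7 and 1.60 TPM treated, a change of 1.44 (SE 0.93, adjusted p = 0.222) that was 0.29 without replicate 2. *CLDN7* was at 1.46, 0.104 and 1.97 TPM untreated and at 2.30, 5.62 and 1.28 TPM treated (0.88, SE 0.51, adjusted p = 0.176), a change that was 0.45 without replicate 2 of the treated libraries and 0.44 without replicate 2 of the untreated ones. The groups overlapped in both genes. *CLDN4* was at 1.59, 1.49 and 2.39 TPM untreated and at 2.59, 1.48 and 0.759 TPM treated, and was the only gene of the 10 whose replicate 2 was not the highest treated library. Its change of -0.16 (SE 0.30, adjusted p = 0.669) took the other sign with scaling by the median of ratios (0.14) and by quantiles (0.92).

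Of the genes below the filter in H82, *TFF3* was listed at 0 in 2 untreated libraries and at 0.351 TPM in the third, and was at 2.25, 23.5 and 0.437 TPM treated. *CDH1* was at 0.0931 TPM in 1 untreated library and listed at 0 in the others, and was at 0.213, 0.404 and 0.124 TPM treated, so that it stayed under 1 TPM throughout. The difference in mean log2(TPM + 1) was 2.14 for *TFF3* and 0.27 for *CDH1*, each with p = 0.1 in a two-sided exact permutation test, the smallest p that 3 against 3 libraries allow. Without replicate 2 of the treated libraries it was 0.97 for *TFF3* and 0.18 for *CDH1*.

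Replicate 2 of treated H82 was set against H146 gene by gene, with no untreated H82 level taken off. As a percentage of the mean in untreated H146, it was at 0.735 for *CDH1*, 3.85 for *CLDN7*, 4.60 for *KRT18*, 4.77 for *EPCAM*, 4.88 for *KRT8*, 5.41 for *KRT19*, 5.68 for *ESRP1*, 6.57 for *TFF3*, 9.60 for *CLDN3* and 12.1 for *CLDN4*. For *CLDN4*, replicate 1 was at 21.3%, and replicate 2, at 1.48 TPM, lay below all untreated H82 libraries (1.49 to 2.39 TPM). Among the 113 genes of H146 named above replicate 2 ranged from 0 to 51.7% with a median of 1.23%, and 53 of them were under 1%. *KRT18* was at 3.14% and 2.77% in replicates 1 and 3, close to replicate 2, whereas *KRT19* was at 0.154% and 0.123% there. The part of this library's difference in the results for H82 was not tested.

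**Figure D3:**
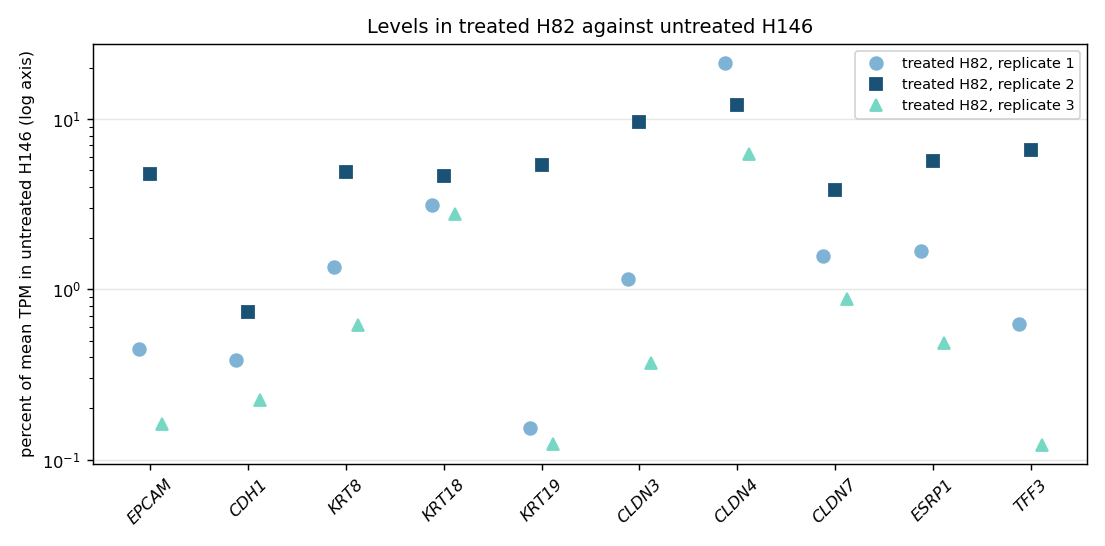
Level of each gene in the 3 treated H82 libraries as a percentage of its mean TPM in untreated H146, on a log axis, with a marker for each replicate. Replicate 2 lies between 3.85% and 12.1% for every gene but *CDH1* (0.735%), and the libraries are closest to one another for *KRT18*.

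The change with FHD-286 differed between the lines for 8 of the 10 genes. This difference was the interaction term of a single limma fit to all 13 libraries, in which 13.7% of all 23676 genes had a change that was lower in H146 than in H82, and 46.5% a higher one. The change in H146 minus that in H82 was -6.36 for *KRT19* (adjusted p = 0.000582), -4.79 for *KRT8* (5.72e-05), -4.28 for *TFF3* (0.00271) and -3.70 for *KRT18* (4.50e-07). It was -2.91 for *ESRP1* (0.00230), -2.65 for *EPCAM* (0.0308), -2.45 for *CLDN3* (0.0433) and -1.14 for *CLDN4* (0.0342). The keratins and *TFF3* thus had the larger differences and the claudins the smaller ones, with *CLDN7* at -1.27 (adjusted p = 0.0535) and *CDH1* at -0.04 (adjusted p = 0.900). In untreated H82, *KRT8*, *KRT18*, *KRT19*, *ESRP1* and *TFF3* had means of 0.117 to 0.444 TPM. A fall as large as theirs in H146 could not show in H82 on this scale. Their differences thus depend on the levels before treatment and do not compare the responses alone. That holds also for *EPCAM*, *CLDN3* and *CLDN4*, with means of 1.26, 2.26 and 1.82 TPM in untreated H82, where this scale understates a fall. The median difference of all genes was 0.73, or 0.14 with scaling by the median of ratios. Without replicate 2 of treated H82, 7 genes passed: *KRT19* was at -4.87, *KRT8* at -4.07, *KRT18* at -3.52, *TFF3* at -3.12, *ESRP1* at -2.21, *EPCAM* at -1.48 (adjusted p = 0.00304) and *CLDN3* at -1.31 (adjusted p = 0.0167), and *CLDN4* did not (-1.14, adjusted p = 0.0537). Leaving out replicate 1 of untreated H82, or replicate 2 of untreated H146, left 5 genes past the threshold.

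A wider set of 97 genes in 9 lists, 96 of them found, had calls in both directions in each line. It holds junction, keratin and other epithelial genes and, as a list of its own, the repressors of epithelial genes. In H146, 16 of 68 tested genes were higher and 23 lower (12 and 34 with scaling by the median of ratios), where 32.5% of all genes were higher and 15.5% lower. In H82, 7 of 43 were higher and 19 lower (9 and 12 with that scaling, 14 and 9 with quantile normalization), where 13.1% of all genes were higher and 45.5% lower, so that these shares lie near those of all genes. These percentages are without scaling. With the median of ratios, 4167 of all 19585 genes were higher and 4917 lower in H146, and 4793 and 6499 of 19770 in H82. With quantile normalization, 4648 of 19585 were higher and 4082 lower in H146, and 5256 and 4859 of 19770 in H82. The median change of the list genes, without scaling, was -0.06 in H146 and -0.52 in H82. Without the repressors and *CDH2*, a cadherin of neural and mesenchymal cells, 15 of 64 were higher and 22 lower in H146, and 5 of 37 and 16 in H82. In H82, without replicate 2 of the treated libraries, the counts over all lists were 7 and 17 of 46. Of the called genes, 6 in H82 (*CLDN18*, *RAB25*, *ESRP2*, *SNAI2*, *TWIST1* and *TFF2*) and 6 in H146 (*CLDN6*, *KRT7*, *KRT15*, *KRT20*, *EVPL* and *GRHL3*) reached 1 TPM in 1 of the groups only and so were tested through the group in which they were high. With no filter, all of these passed but *SNAI2* in H82 (adjusted p = 0.0693). Of the genes named below, the falls of *DSG2*, *SNAI1*, *TJP3* and *ZEB2* in H82 did not pass with the median of ratios, and those of *RAB25*, *ESRP2*, *TFF2*, *TJP3* and *ZEB2* did not pass with quantile normalization, under which *TJP3* (0.27) and *ESRP2* (0.00099) took the other sign. In H146 the rise of *MUC1* did not pass with either scaling.

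Of the other keratins in H146, 4 of 5 tested fell (5 of 5 with either scaling) and none rose. Of these 4, *KRT7*, *KRT15* and *KRT20* were under 1 TPM in every treated library, and so were tested only through the untreated ones, where they were high. The count is therefore not read as a trait shared by keratins. Only *KRT80* and *KRT10* reached 1 TPM in both groups, and *KRT10* did not pass without scaling (-0.49, adjusted p = 0.0788 in limma). *KRT80*, a keratin of differentiating epithelia, went from 99.0 ± 25.8 (SD, n = 3) to 1.96 ± 0.397 TPM (n = 4) and fell by 5.06 (adjusted p = 2.79e-06), and *KRT15*, a keratin of basal cells, fell by 2.95 to 0.606 ± 0.210 TPM. In H82, the 1 tested, *KRT10*, rose from 30.3 ± 6.25 to 102 ± 14.6 TPM (1.74, adjusted p = 0.000452). Of the other claudins in H146, 3 of 9 fell (5 with either scaling) and 1 rose. *CLDN18*, a claudin of stomach and lung epithelium, went from 335 ± 47.5 to 12.2 ± 4.79 TPM (-4.74, adjusted p = 1.28e-05), and *CLDN1* from 302 ± 24.5 to 51.5 ± 23.2 TPM (-2.63), while *CLDN6* rose by 1.30 to 1.84 ± 0.469 TPM. In H82, 5 of 7 other claudins fell (4 with quantile normalization), again with *CLDN18* first (-3.03, from 8.65 ± 0.600 to 0.184 ± 0.0810 TPM), and *CLDN10* rose by 1.18 to 42.9 ± 4.71 TPM. Of all genes tested, 15.5% were lower and 32.5% higher in H146, and 45.5% and 13.1% in H82, without scaling.

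Junction plaque and scaffold genes went both ways, as did all genes (32.5% higher and 15.5% lower in H146, 13.1% and 45.5% in H82, without scaling). The small counts of each list are therefore not read as a trait of junction genes. Of 13 tight junction scaffold and polarity genes in H146, 5 rose and 2 fell, among them the scaffold *TJP1* (4.50 ± 1.07 to 12.9 ± 4.04 TPM, 1.31) and its relative *TJP3* (48.0 ± 3.99 to 15.5 ± 4.39 TPM, -1.61). The counts were 4 and 3 with the median of ratios. In H82, 1 of 7 rose (*CGN*, cingulin, by 1.47) and 2 fell, or 0 with either scaling, of which *TJP3* (-0.83) was no longer called without replicate 2 of treated H82 (adjusted p = 0.149). Of 8 adherens junction genes in H146, 3 rose and 2 fell, led by N-cadherin, *CDH2*, which went from 77.3 ± 13.4 to 189 ± 41.9 TPM (1.27, adjusted p = 0.00132), and by *NECTIN1* (-0.78). With the median of ratios 2 were higher and 4 lower. In H82, 0 of 7 rose and 3 fell (1 and 2 with either scaling), with *NECTIN1* at -1.91. Of the desmosome genes, 4 of 9 rose and 1 fell in H146 (*PKP2*, plakophilin 2, 1.34, and *JUP*, plakoglobin, -0.45), and 1 of 7 rose and 1 fell in H82. With the median of ratios the counts were 3 and 3 in H146 and 2 and 0 in H82, and with quantile normalization 4 and 1 in both lines. The genes in H82 were *PERP*, at 1.22 (0.79 without replicate 2), and *DSG2*, at -0.63, which was no longer called without it (adjusted p = 0.0623).

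Of 10 epithelial surface and trafficking genes in H146, 5 fell and 1 rose (7 and 0 with the median of ratios, 5 and 0 with quantile normalization). The adhesion glycoprotein *CEACAM5* went from 139 ± 16.6 to 7.74 ± 6.38 TPM (-4.28, adjusted p = 0.000299), and the mucin *MUC1* rose by 0.66 to 7.89 ± 1.70 TPM. In H82, 3 of 5 fell (2 with the median of ratios and 0 with quantile normalization), *RAB25* most (-1.46), and 0 rose. Among the transcription and splicing factors of epithelia, 5 of 11 fell and 2 rose in H146. *ELF3*, an ETS factor of epithelia, went from a mean of 229.8 to 59.2 TPM (-1.99, adjusted p = 0.000277), and *GRHL3*, a Grainyhead factor, rose by 1.14 to 1.32 ± 0.291 TPM. In H82, *KLF5* rose by 0.71 and *ESRP2*, the relative of *ESRP1*, fell by 1.14 to 0.555 ± 0.0537 TPM, out of 3 tested. The shares over all genes, without scaling, were 15.5% lower and 32.5% higher in H146, and 45.5% and 13.1% in H82.

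The repressors of epithelial genes were measured mostly in H82, where 5 of 6 were tested and all 5 passed the threshold, in both directions. Of all genes in H82, 13.1% were higher and 45.5% lower. *TWIST1* and *SNAI2* were under 1 TPM in every untreated library there, and so were tested only through the treated ones. In limma with no filter, *TWIST1* passed (adjusted p = 0.00994) and *SNAI2* did not (adjusted p = 0.0693). *TWIST1* rose by 2.16 to a mean of 5.80 TPM (7.99, 7.03 and 2.38 TPM in the treated libraries), and *SNAI2* by 1.78 to 4.55 ± 5.10 TPM, or by 1.07 without replicate 2 of the treated libraries. *ZEB1* fell by 0.93 to 13.2 ± 0.904 TPM, *ZEB2* fell by 0.98 to 2.61 ± 0.957 TPM and *SNAI1* fell by 0.77 to 33.9 ± 5.81 TPM. In H146, 1 of 3 tested passed, *SNAI2*, which fell by 1.64 from 24.3 ± 4.59 to 7.18 ± 1.77 TPM. *KRT7*, *KRT15*, *KRT20*, *EVPL*, *CLDN1*, *ZEB1* and *SNAI1* were named after their values were seen. Of the other trefoil factors, *TFF2* fell by 1.09 in H82 to 0.147 ± 0.144 TPM, and neither was tested in H146.

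**Figure D4:**
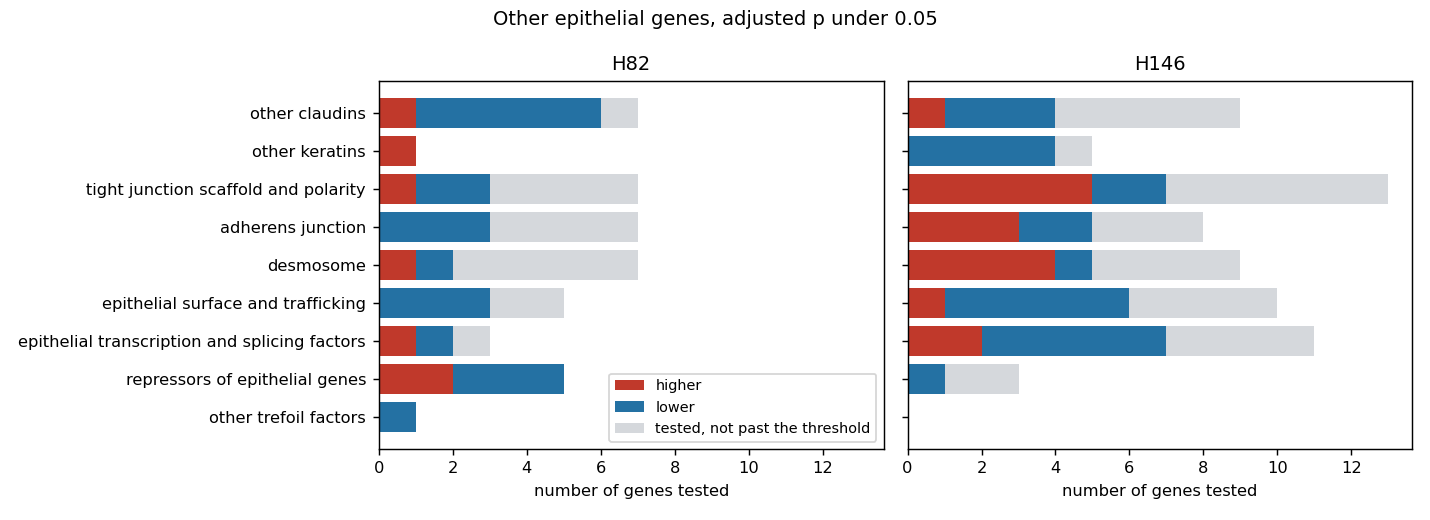
Number of genes of each list that were tested in H82 (left) and H146 (right), split into those higher (red) and lower (blue) with FHD-286 at an adjusted p under 0.05 and those that did not pass (grey). In H146 the keratin list holds 4 lower and 0 higher genes, and the desmosome list 4 higher and 1 lower (3 and 3 with scaling by the median of ratios). Of the lower keratins, *KRT7*, *KRT15* and *KRT20* were tested only through the untreated libraries.

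The pattern most like that of *EPCAM* over the 13 libraries, by Pearson's r of log2(TPM + 1) among 23673 genes, was that of *ST14*, the serine protease matriptase (0.998), followed by *SLCO3A1* (0.997), *ST8SIA5* (0.996), *RIBC2* (0.995) and *CLDN3* (0.995). *ST14* was at 289 to 385 TPM in untreated and 157 to 190.2 TPM in treated H146, at 0 to 0.358 TPM in untreated H82 and at 0.961, 18.5 and 0.323 TPM in treated H82. Among the 10, *ESRP1* ranked 33 by this measure, *TFF3* 98, *CLDN7* 132, *KRT8* 144, *KRT18* 331, *CDH1* 502, *KRT19* 764 and *CLDN4* 3786. These values are a description without a test, since all genes that separate the lines share the gap between H82 and H146.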

How the data were processed

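Per the labels, H82 and H146 cells were cultured in RPMI medium and RNA was extracted and made into libraries by a service provider. The authors trimmed reads (Trim Galore 0.4.4 in the submitters' processing notes), mapped them to hg38 and counted them with STAR and GENCODE release 28, used DESeq2, and deposited 1 TPM table per line. Every library has the same sum, and depth is not part of TPM, so that the spread between libraries alone sets the precision.

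The deposited TPM were fitted in R 4.3.3 with limma 3.58.1 (lmFit, eBayes with trend) on log2(TPM + 1), each line on its own, with treatment as the only term and Benjamini-Hochberg adjustment over all genes tested. The difference between lines and that between untreated groups came from 1 fit over 13 libraries, over genes that passed the filter in either line. Members below the filter were compared by exact permutation. The fits were tried on simulated data with independent noise, with changes added only to genes above the levels of the members in H82. That does not cover low-level genes or a single library that stands apart. Named list genes are those with the largest rise and fall past the threshold, without overlap, in each list and line, and the 5 genes closest to *EPCAM*. The members, lists and tests were chosen with earlier results of these data known. Alternatives were a pseudocount of 0.1, no filter, a mean TPM above 2, 2 scalings between libraries, eBayes without trend, the replicate number as a block, and each library left out. Averaging the closest libraries, and a filter of 2 libraries without 1 treated H82 library, were added after seeing the data. Coordinates and overlaps came from GENCODE release 44, and promoter sequences from RefSeq (GRCh38.p14). Tables were prepared in Python 3.11.15 (pandas 2.3.3, numpy 2.4.6, scipy 1.17.1), and plots with matplotlib 3.10.9.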

Additional observations from a re-analysis of the deposited data

Results flagged for a closer look

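The change with FHD-286 differed between the lines, by the interaction in limma, for *KRT19* (-6.36 on the log2 scale, H146 minus H82), *KRT8* (-4.79), *TFF3* (-4.28), *KRT18* (-3.70), *ESRP1* (-2.91), *EPCAM* (-2.65), *CLDN3* (-2.45) and *CLDN4* (-1.14). For the keratins, *ESRP1* and *TFF3*, levels in untreated H82 were too low for a fall like that in H146 to show. For *EPCAM*, *CLDN3* and *CLDN4* they were low too, with means of 1.26, 2.26 and 1.82 TPM, where this scale understates a fall. In treated H146, replicate 2 of *CDH1*, at 90.2 TPM, lay far above the other 3 libraries, with a gap to the nearest of them of 0.905 of the whole range, above the limit for 4 libraries (Dixon's test). Groups of 4 libraries were looked at for all 10 genes, and chance flags about 1 in 20 groups.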

How the results depend on the processing

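In H146, 8 or 9 of the 10 genes were called in all 15 alternatives, and the 8 named in the report kept their direction and their call in each. *CLDN7* passed the threshold in 4 of the 15 (adjusted p 0.0112 to 0.194). All 10 genes were higher in untreated H146 than in untreated H82 in all 20 alternatives. In H82, the count of 3 became 7 with quantile normalization, and 0 to 4 with 1 library left out (2 without any 1 of the untreated libraries). Of all 19770 genes tested in H82, 2588 were higher in the main fit and 5256 with quantile normalization. With the filter of 3 libraries kept, leaving out a treated H82 library left 4 members tested, since *KRT8*, *KRT18*, *KRT19* and *ESRP1* no longer passed it. *ESRP1* in H82 did not pass in 7 of 14 alternatives (adjusted p 0.00835 to 0.111). For the difference between lines, the count of 8 became 5 without a filter, 5 with the closest libraries averaged, and 5 to 9 with 1 library left out. *EPCAM*, *CLDN3* and *CLDN4* lost that call in 7, 12 and 10 of 20 alternatives. Changes that took the other sign were those of *CLDN4* in H82 (0.14 with the median of ratios, 0.92 with quantiles, -0.42 to 0.092 with 1 library left out), of *CDH1* in H146 (-0.089 with the median of ratios) and of *CDH1* between the lines (0.0092 with the closest libraries averaged, -0.21 to 0.045 with 1 library left out). The cause was not tested.

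The replicate numbers did not pair the libraries. Deviations of same-numbered libraries from their group means correlated at 0.027, 0.0075 and -0.038 in H82 and at -0.11, -0.065 and 0.011 in H146. With the replicate number as a block, 4 members were called in H82 and 8 in H146. The member added in H82 was *KRT19* (adjusted p = 0.0461 in limma).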
